A study of Oryza sativa with 8 samples.

Results

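Neighbouring genes in 2 stretches of rice chromosome 7 were followed in the roots of 2 rice lines, 1 called tolerant of cold and 1 called sensitive to it, at 28 °C and at 10 °C. The members are the IDs LOC_Os07g12150 to LOC_Os07g13540 (first stretch) and LOC_Os07g15490 to LOC_Os07g20510 (second stretch) with a mean of at least 1 normalised count over all libraries, 2 IDs being left out by the rule. They number 155 of the 42189 IDs in the deposited tables, 59 in the first stretch and 96 in the second, out of 99 and 212 IDs of any mean. The stretches were chosen by the measured line differences at 28 °C, which lay close together in them, so the values of that contrast are given as a description, with no test.

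Both lines are IRGA breeding lines of indica rice, and the stem of their names is shared. Seedlings grew in nutrient solution at 28 °C to the 3-leaf stage, at about 30 days, and then stayed at 28 °C or went to 10 °C. There were 2 libraries per group, each of 4 plants, in 4 groups, called biological replicates in the labels with no word on how they were kept apart, so p-values measure the spread between these libraries only. The time in the cold is given as 24 h in the extraction protocol and as up to 10 days in the titles, and the root identity of the samples could not be checked because the IDs carry no gene names.

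IDs of the LOC_Os form give the chromosome and then a number that follows the order of genes along it, so that close numbers mean neighbouring genes. Breeding lines taken from 1 cross share most of their genome and differ in blocks that came from different parents, and in rice such blocks can differ both in the sequence of genes and in which genes are there at all. Genes of such a block need have no function in common. Whether the stretches are such blocks was not tested, and no member is given a name or role here, since neither the deposited tables nor the reference table pairs these IDs with one.

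Reads per library were solved from the deposited values for 147 members. The other 8 are abundant members with a mean of at least 2060 normalised counts, and for these only the level of each group is given. The libraries of a group are called deeper and shallower by their size factors, which ran from 1.10 to 1.25 at 28 °C and from 0.679 to 0.991 at 10 °C; which is replicate 1 or 2 of the labels is not known, and total read numbers were not used here. A level of 0 reads in both libraries leaves room for 1.22 (tolerant) and 1.28 (sensitive) normalised counts at 28 °C and for 1.66 and 1.83 at 10 °C, for counting error only. Among 102 members with a mean of at least 20, the median difference between the 2 libraries of a group was 0.18 on the log2 scale at 28 °C and 0.57 at 10 °C in sensitive roots, and 0.29 and 0.41 in tolerant roots.

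The deeper tolerant library at 28 °C stood apart from the shallower one at members with few or no tolerant reads at 10 °C. The size factors of these libraries were 1.25 and 1.21. Of 13 members with at least 10 normalised counts in sensitive roots at both temperatures and at most 1 read over both tolerant libraries at 10 °C, 11 had 3 or more reads in the deeper tolerant library at 28 °C and 1 had as many in the shallower one. Together they had 186 reads in the deeper and 13 in the shallower library, and 11 of those 13 belonged to LOC_Os07g18110. The deeper library held these genes at 13.3% of the summed sensitive level at 28 °C, and the shallower one at 0.969%. LOC_Os07g20164 had 73 reads and LOC_Os07g18930 had 40 in the deeper library, and both had 0 in the shallower one and 0 in both tolerant libraries at 10 °C. The exceptions were LOC_Os07g12390 and LOC_Os07g16054, with 0 reads in all 4 tolerant libraries.

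Outside the stretches chromosome 7 had 6 genes of the same kind, with 238 reads in the deeper and 20 in the shallower tolerant library. Of the 238 reads 152 belonged to LOC_Os07g15440, and 3 of the 6 genes had 3 or more reads in the shallower library, among them LOC_Os07g09814 with 11 in the deeper and 10 in the shallower one. Over 24 genes of the same kind on other chromosomes, 8 had 3 or more reads in the deeper and 2 in the shallower library. These chromosomes were not alike: 3 of 3 genes on chromosome 1 had 3 or more reads in the deeper library, as did the single genes on chromosomes 2 and 6. On chromosome 11 it was 1 of 5, on chromosome 4 1 of 8, on chromosome 10 1 of 3, on chromosome 8 0 of 1 and on chromosome 9 0 of 2. LOC_Os01g09470 on chromosome 1 was high in both tolerant libraries at 28 °C. It had 86 reads in the deeper and 49 in the shallower one, 382% and 226% of its sensitive level. The part of the deeper library in the results at 28 °C was not tested beyond leaving it out, so values at 28 °C are given per library where the reads were solved. Calls, fold bounds and group levels at 28 °C pool both libraries.

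**Figure D1:**
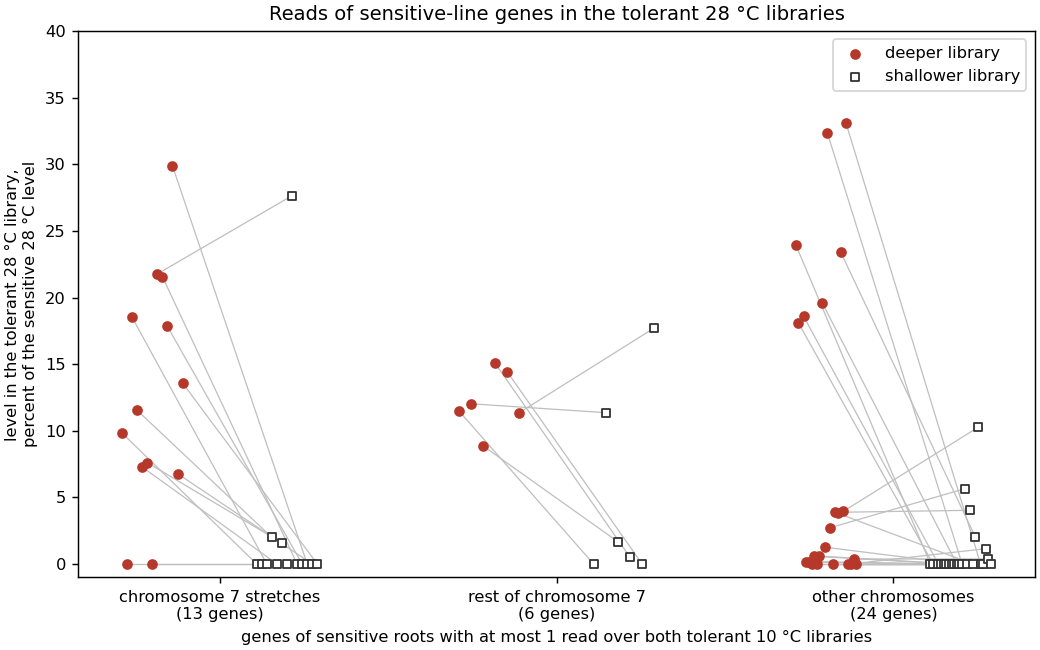
Level of each gene in the deeper (filled circles) and shallower (open squares) tolerant library at 28 °C, as percent of its mean level in sensitive roots at 28 °C, for genes with at most 1 read over both tolerant libraries at 10 °C and at least 10 normalised counts in sensitive roots at both temperatures; lines join the values of a gene. Among the 13 genes of the stretches, 11 had 3 or more reads in the deeper library and 1 in the shallower; 1 gene on another chromosome lies above the axis, which ends at 40%.

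At 10 °C the lines differed at 31 of 126 tested members, 23 of them lower and 8 higher in tolerant roots, where the authors' deposited table gives an adjusted p below 0.05. Over all genes 2.9 percent were called at 10 °C, 1.31 percent higher and 1.6 percent lower in tolerant roots. The first stretch had 14 of 50 tested members called, 28%, of which 13 were lower, and the second had 17 of 76, 22.4%, of which 10 were lower. The other 29 members have no adjusted p at 10 °C in the authors' deposited table. On the rest of chromosome 7, 66 of 1658 tested genes were called at 10 °C, 3.98%. The median log2 difference over the tested members was −0.42 in the first and −0.21 in the second stretch, against −0.00 over all genes, and setting groups with 0 reads at their bound left both medians where they were. These libraries are other ones than those at 28 °C that the choice of the stretches used. They are not wholly apart from the choice of members. The filter on the mean ran over all libraries, and all comparisons come from 1 fit. LOC_Os07g13360, for example, passed that filter mainly on its 33.4 and 41.2 normalised counts in sensitive roots at 10 °C. Members of any mean gave 31 calls at 10 °C as well, but no gene with a mean below 1 has an adjusted p there, so this number could not differ. With the statistics divided by their robust spread, 17 members were called at 10 °C, 13.5% of those tested, against 1.16 percent of all genes. In each of the 31 called members both tolerant libraries lay on 1 side of both sensitive ones. The calls came from these same libraries, so this adds no support, and the share over all genes was not computed.

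Of the 23 members called lower at 10 °C, 15 had at most 1 read over both tolerant libraries. At most 1 read over both tolerant libraries at 10 °C, against at least 10 reads in sensitive roots, was found in 10 of 51 members of the first stretch and in 13 of 81 of the second that had 10 reads in either line. Over all genes that share was 0.713 percent, and for both stretches together it was 17.4%. The mirror case, at most 1 read in sensitive and at least 10 in tolerant roots, was found at 2 of 132 members, LOC_Os07g13500 and LOC_Os07g15940, 1.52% against 0.372 percent over all genes. In a bulk sample fewer cells of a type and less RNA per cell cannot be told apart. Nor do the counts tell low expression from a gene that is absent or differs in sequence in 1 line, and this was not tested.

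**Figure D2:**
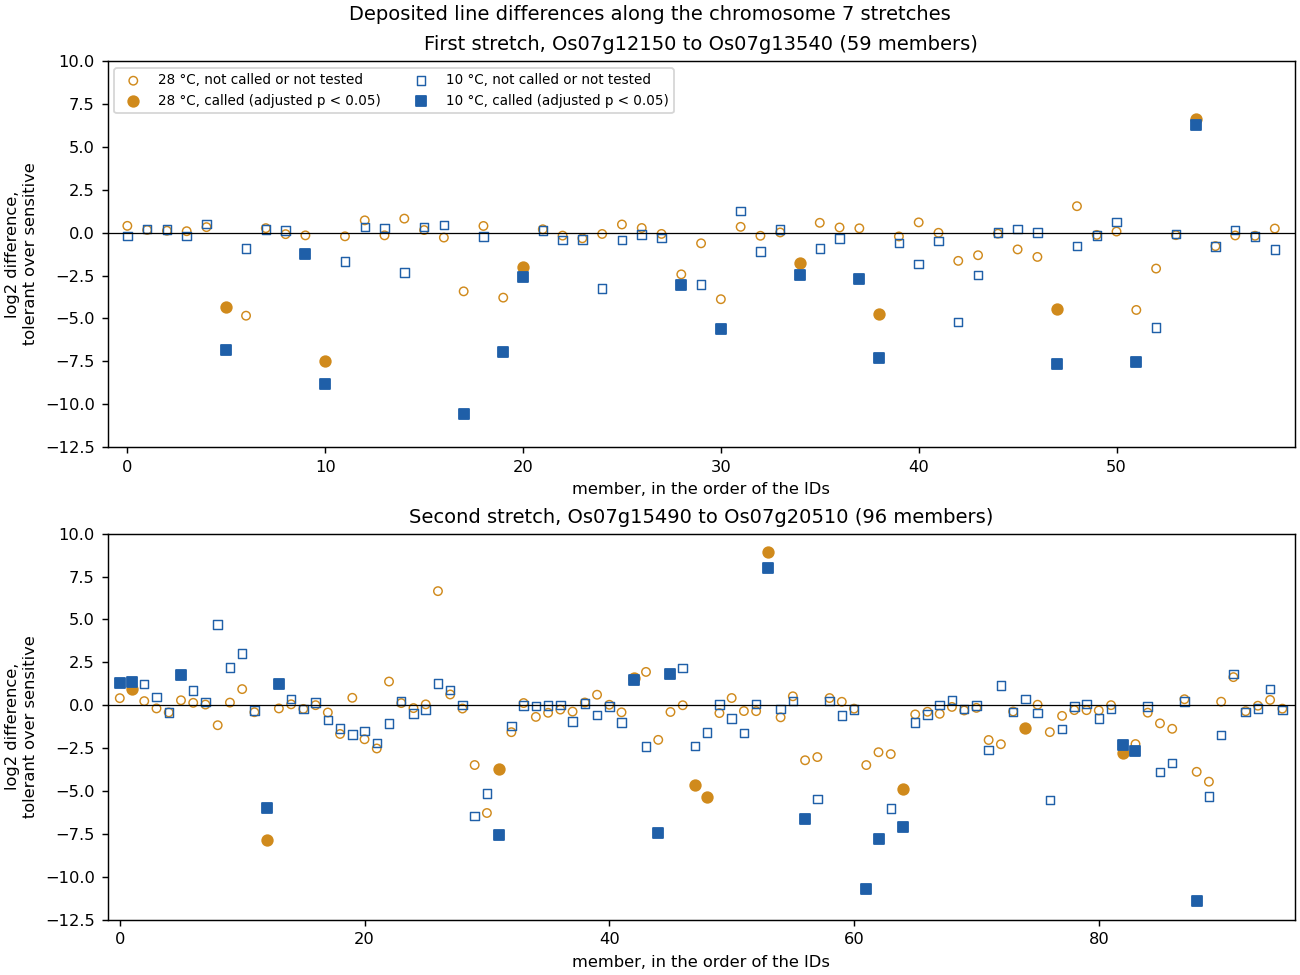
Log2 difference between tolerant and sensitive roots for each member of the first (top) and second (bottom) stretch, in the order of the IDs, at 28 °C (circles) and at 10 °C (squares), from the authors' deposited table; filled symbols were called at an adjusted p below 0.05. In the first stretch 13 of the 14 members called at 10 °C lie below 0, and in the second 10 of 17 do; values beyond about 5 either way come mostly from groups at or near 0 reads and are not bounds.

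In the first stretch, the member with the smallest p at 10 °C was LOC_Os07g12570, which was expressed in both lines at different levels. It stood at 622 and 368 normalised counts in the deeper and shallower sensitive libraries at 10 °C, and at 74.7 and 92.9 in the tolerant ones. Its log2 difference was −2.57 ± 0.36 (SE) with an adjusted p of 1.07e-09 in the authors' deposited table. At 28 °C its sensitive libraries held 566 and 506 and its tolerant ones 147 and 118, so the tolerant libraries lay below the sensitive ones at both temperatures. LOC_Os07g12770 had a like pattern, with 326 and 369.6 normalised counts in sensitive and 46.4 and 78.2 in tolerant roots at 10 °C. Its log2 difference at 10 °C was −2.49 ± 0.38 (SE), adjusted p 3.15e-08 in the authors' deposited table, and its libraries at 28 °C held 206 and 195 in sensitive and 69.4 and 46.4 in tolerant roots.

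LOC_Os07g12540, LOC_Os07g12390, LOC_Os07g13360, LOC_Os07g12810, LOC_Os07g13234 and LOC_Os07g12560 had 0 reads in both tolerant libraries at 10 °C and were called lower in the authors' deposited table. LOC_Os07g12540 stood at 131 and 479 normalised counts in sensitive roots at 10 °C and was at least 166-fold lower in tolerant roots, taking 3 reads over the group as the bound. It is a member that rose in the cold in sensitive roots, from 33.9 and 26.4 normalised counts at 28 °C, while the tolerant libraries held 5.59 and 0 at 28 °C. LOC_Os07g12390 stood at 55.3 and 129.6 normalised counts in sensitive roots at 10 °C, at least 51.9-fold above the bound for tolerant roots, and it had 36.3 and 16.4 against 0 and 0 at 28 °C.

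LOC_Os07g13234 held 36.5 and 45.6 normalised counts in sensitive roots at 10 °C and was at least 24.3-fold lower in tolerant roots. LOC_Os07g13360 went from 4.03 and 2.73 normalised counts at 28 °C to 33.4 and 41.2 at 10 °C in sensitive roots, with 0 reads in all 4 tolerant libraries, and was at least 22.1-fold lower in tolerant roots at 10 °C. LOC_Os07g12810 was at least 19.1-fold lower, from 31.3 and 32.4 normalised counts, and LOC_Os07g12560 at least 14.0-fold lower, from 13.6 and 36.8. In these members the sensitive line had reads in each library and the tolerant line had none at 10 °C.

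LOC_Os07g12230 and LOC_Os07g12700 had 1 read over the tolerant libraries at 10 °C. The first stood at 74.0 and 54.5 normalised counts in sensitive roots, a ratio of 119 (95% counting interval 21.0 to 4754), and the second at 40.7 and 14.7, a ratio of 54.1 (9.27 to 2180.3). At 28 °C LOC_Os07g12230 held 102 and 108 normalised counts in sensitive roots, and 10.4 in the deeper and 0 in the shallower tolerant library. The sensitive libraries lay above the tolerant ones in both members at both temperatures.

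LOC_Os07g12330 and LOC_Os07g12670 were lower with reads left in both tolerant libraries. LOC_Os07g12330 had the smallest difference of the 14, with 182 and 186 normalised counts in sensitive and 67.6 and 90.4 in tolerant roots at 10 °C, and by the authors' deposited table a log2 difference of −1.22 ± 0.31 (SE), adjusted p 0.00642. At 28 °C its libraries held 140.3 and 149 in sensitive and 123 and 137 in tolerant roots. LOC_Os07g12670 stood at 148 and 36.8 in sensitive and at 18.2 and 3.67 in tolerant roots at 10 °C, with the 2 libraries of each line far apart from each other, and its log2 difference was −3.07 ± 0.89 (SE) in the authors' deposited table.

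LOC_Os07g13500 was the 1 member of the first stretch called higher in tolerant roots. It had 0 reads in all 4 sensitive libraries, 20.0 and 11.6 normalised counts in tolerant roots at 28 °C and 16.2 and 19.6 at 10 °C. In tolerant roots it was higher by at least 9.66-fold at 10 °C and by at least 12.4-fold at 28 °C.

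**Figure D3:**
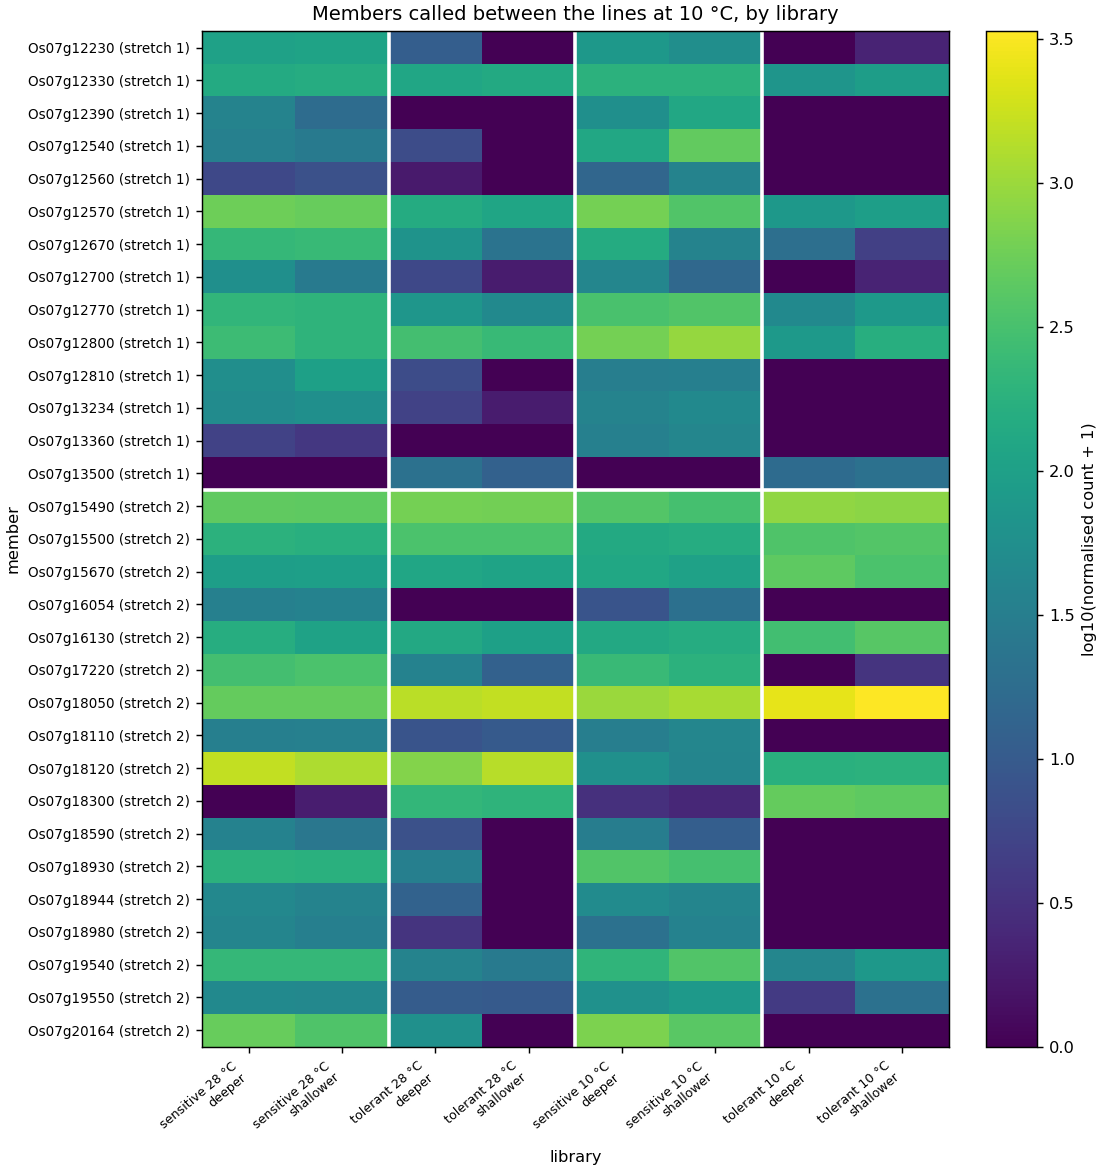
Normalised counts, as log10 of the count plus 1, of the 31 members called between the lines at 10 °C (rows, in the order of the IDs, first stretch above the white line) in the 8 libraries (columns). Dark cells are at or near 0 reads; the tolerant libraries at 10 °C are dark in many rows where both sensitive pairs are not, and the deeper tolerant library at 28 °C is brighter than the shallower one in most of those rows.

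In the second stretch 7 of 76 tested members were called higher in tolerant roots at 10 °C, and LOC_Os07g18300 had the smallest p of all members at 10 °C. Its sensitive libraries had 0 and 1 reads at 28 °C and 2 and 1 at 10 °C, against 215 and 197 normalised counts in tolerant roots at 28 °C and 492 and 449.8 at 10 °C. The ratio at 10 °C was 258 (95% counting interval 88.0 to 1254), and the adjusted p was 4.32e-16 in the authors' deposited table. Its level in tolerant roots also rose in the cold, by 1.19 ± 0.32 (SE, log2 scale) as the authors' deposited table has it. LOC_Os07g18050, expressed in both lines, stood at 983 and 1159 normalised counts in sensitive and at 2517 and 3367 in tolerant roots at 10 °C, a log2 difference of 1.46 ± 0.24 (SE) in the authors' deposited table. At 28 °C its libraries held 498 and 500.4 in sensitive and 1442 and 1611 in tolerant roots, and it rose in the cold in both lines, by log2 changes of 0.95 ± 0.24 (tolerant) and 1.10 ± 0.25 (sensitive; SE, from the authors' deposited table).

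The start of the second stretch held 4 of its 7 members called higher in tolerant roots. From LOC_Os07g15490 to LOC_Os07g16130 lie 14 members, of which 4 of 11 tested were called higher and 1 lower at 10 °C, while among the 82 members after them 3 of 65 tested were higher and 9 lower. This division was made after the values were seen and has no test. LOC_Os07g15490 stood at 382 and 305 normalised counts in sensitive and at 879 and 832 in tolerant roots at 10 °C, a log2 difference of 1.31 ± 0.22 (SE) with an adjusted p of 1.07e-06 in the authors' deposited table. At 28 °C it stood at 466 and 448 in sensitive and at 622 and 595 in tolerant roots.

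LOC_Os07g15500 held 139.7 and 153 normalised counts in sensitive and 360.4 and 383 in tolerant roots at 10 °C, and 183 and 168 against 339 and 334 at 28 °C. Its log2 difference at 10 °C was 1.35 ± 0.24 (SE) in the authors' deposited table. LOC_Os07g15670 and LOC_Os07g16130 were apart at 10 °C and close at 28 °C. LOC_Os07g15670 stood at 125 and 105 in sensitive and at 451 and 334 in tolerant roots at 10 °C, and at 92.7 and 97.5 against 123 and 109 at 28 °C. LOC_Os07g16130 held 135 and 153 in sensitive and 284 and 408 in tolerant roots at 10 °C, while its libraries at 28 °C overlapped, with 158 and 108 against 133 and 100.3. By the authors' deposited table both rose in the cold in tolerant roots, with log2 changes of 1.76 ± 0.31 and 1.56 ± 0.37 (SE). In sensitive roots the authors' deposited table has log2 changes of 0.28 ± 0.32 and 0.11 ± 0.37 (SE) for them, with adjusted p of 0.507 and 0.835.

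Of the 10 lower members of the second stretch, 7 had 0 reads in tolerant roots at 10 °C. LOC_Os07g20164 stood at 674 and 421 normalised counts in sensitive roots and was at least 343-fold lower in tolerant roots. At 28 °C it stood at 503 and 355 in sensitive roots, and at 58.3 in the deeper and 0 in the shallower tolerant library, and its adjusted p in the authors' deposited table was 1. LOC_Os07g17220 had 2 reads over the tolerant libraries at 10 °C against 243 and 183 normalised counts in sensitive roots, a ratio of 197 (95% counting interval 54.2 to 1634), and it was called at 28 °C too, with 294 and 342 in sensitive and 35.9 and 11.6 in tolerant roots.

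The 4 neighbours LOC_Os07g18930, LOC_Os07g18944, LOC_Os07g18960 and LOC_Os07g18980 all had 0 reads in the tolerant libraries at 10 °C, and 3 of them were called lower there. LOC_Os07g18930 stood at 366 and 311 normalised counts in sensitive roots at 10 °C, at least 207-fold above the bound for tolerant roots. LOC_Os07g18944 was at least 27.6-fold lower in tolerant roots, from 50.1 and 39.8 normalised counts, and LOC_Os07g18980 at least 15.8-fold lower, from 19.8 and 35.3. LOC_Os07g18960, at 6.26 and 20.6 in sensitive roots, had an adjusted p of 0.0924 in the authors' deposited table. At 28 °C each of the 4 had reads in the deeper tolerant library, 40, 15, 3 and 3 in the order given, and 0 in the shallower one.

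LOC_Os07g18110 stood at 31.3 and 41.2 normalised counts in sensitive roots at 10 °C and had 0 reads in tolerant roots, at least 21.3-fold lower. At 28 °C it was present in both tolerant libraries, at 7.18 and 9.12 normalised counts, against 32.3 and 33.7 in sensitive roots. LOC_Os07g18590 and LOC_Os07g16054 were lower with 0 reads as well, at least 13.3-fold and at least 7.36-fold; both fall outside the rule for named members and are given because they complete the list. LOC_Os07g19540 and its neighbour LOC_Os07g19550 were lower with reads left in tolerant roots. The first held 205 and 367 in sensitive and 40.4 and 74.6 in tolerant roots at 10 °C, and the second 60.5 and 78.0 against 3.03 and 19.6. The authors' deposited table gives them log2 differences of −2.32 ± 0.46 and −2.65 ± 0.77 (SE).

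At 28 °C, the contrast that chose the stretches, 17 of 155 members were called in the authors' deposited table, 7 in the first and 10 in the second stretch, 13 lower and 4 higher in tolerant roots. Over all genes 0.765 percent were called at 28 °C, and nothing is read from the difference. With the statistics divided by their robust spread the calls were 33, against 3.01 percent of all genes. Of these 17, 14 were called in the same direction at 10 °C, which is 82.4% of the calls at 28 °C and 45.2% of those at 10 °C, and 0 were called in the opposite direction. Over all genes the matching shares of calls were 69.7% and 21.6%; as a share of the genes tested at 10 °C, calls in the same direction at both temperatures came to 0.627 percent over all genes and 11.1% over the members, and the 28 °C calls among the latter chose the stretches. All 7 calls of the first stretch and 7 of 10 of the second were among the 14.

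The 3 members called at 28 °C only were LOC_Os07g18158, LOC_Os07g18162 and LOC_Os07g19320, and each fell in the cold in sensitive roots. LOC_Os07g18158 stood at 159 and 149 normalised counts in sensitive and at 11.2 and 0.829 in tolerant roots at 28 °C, and went to 5.21 and 0 against 1.01 and 0 at 10 °C. LOC_Os07g18162 stood at 107 and 90.2 against 3.99 and 0.829 at 28 °C, with 1 read over the sensitive and 0 over the tolerant libraries at 10 °C. At 10 °C neither member had the reads to show a difference between the lines. Their neighbour LOC_Os07g18154, whose libraries overlapped between the lines at 28 °C, fell in both, from 163 and 205 to 3.13 and 2.95 in sensitive roots and from 176 and 192 to 7.07 and 20.8 in tolerant roots. No source used here says how reads shared by near-identical neighbours were counted. LOC_Os07g19320 went from 267 and 219 to 35.5 and 26.5 normalised counts in sensitive and from 88.6 and 108 to 40.4 and 40.3 in tolerant roots, so the line with the lower level at 28 °C had the higher one at 10 °C, where the adjusted p was 0.808 in the authors' deposited table.

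Some members had reads in 1 line only without being called at 28 °C. LOC_Os07g17010, which was chosen after its values were seen, had 0 reads in both sensitive libraries and 21 and 18 in the tolerant ones at 28 °C, with 1 read over all 4 libraries at 10 °C. Of the 23 members with at most 1 read in tolerant and at least 10 in sensitive roots at 10 °C, 17 were tested at 10 °C and 15 called, while 6 were called at 28 °C. Their reads at 10 °C picked these members, so calls there are largely built in and nothing is read from 15 beside 6. At 28 °C these 23 members had 199 reads in the deeper and 14 in the shallower tolerant library, against 1573 and 1220.0 in the sensitive ones. Their summed level in tolerant roots at 28 °C was 7.16% of that in sensitive roots with both tolerant libraries, 0.975% without the deeper and 13.3% without the shallower one.

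Cold responses of the members were side by side in both lines, and both share their libraries at 28 °C with the contrast that chose the stretches. In tolerant roots 48 of 148 tested members were called in the authors' deposited table, 20 up and 28 down in the cold, where 40 percent of all genes were called, 20.3 percent up and 19.7 percent down. In sensitive roots 43 of 148 were called, 22 up and 21 down, where 44.5 percent of all genes were, 22.8 percent up and 21.8 percent down. The first stretch had 13 of 58 called in tolerant roots, 4 up and 9 down, and 15 of 58 in sensitive roots, 10 up and 5 down. The second had 35 of 90 in tolerant roots, 16 up and 19 down, and 28 of 90 in sensitive roots, 12 up and 16 down. Called in the same direction in both lines were 31 of the 148 members, 20.9%, against 31.9 percent of all genes. These 31 were 64.6% of the members called in tolerant roots and 72.1% of those called in sensitive roots, where over all genes the shares were 79.7% and 71.6%. With the statistics divided by their robust spread, 0 members were called in tolerant and 1 in sensitive roots, against 1 percent and 1.01 percent of all genes. That spread holds the cold response itself, with 40 and 44.5 percent of all genes called, so few calls were to be expected. At an unadjusted p below 0.05 in the deposited Wald test there were 69 and 54 of 155 members. On other chromosomes there were 11487 and 12365 of 25238 genes. Whether the response differed between the lines was not tested, since that difference contains the contrast that chose the stretches.

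In the first stretch the most significant rise in tolerant roots was that of LOC_Os07g12530, from 663 and 775 to 2501 and 2611 normalised counts, for which the authors' deposited table has a log2 change of 1.83 ± 0.21 (SE) and an adjusted p of 1.01e-16. In sensitive roots it rose from 909 and 844 to 1734 and 2037, a log2 change of 1.10 ± 0.21 (SE) by the authors' deposited table. LOC_Os07g12240 rose in both lines as well, from 0.798 and 0 to 86.8 and 79.4 normalised counts in tolerant and from 9.68 and 13.7 to 89.7 and 229.7 in sensitive roots. LOC_Os07g12510 was called in sensitive roots only, rising from 12.1 and 9.12 to 109.5 and 452, and in tolerant roots its libraries went from 17.6 and 19.9 to 21.2 and 91.7.

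Among the falls of the first stretch, LOC_Os07g12650 went from 2629 and 1943 to 878 and 733 normalised counts in tolerant and from 2510.2 and 2299 to 1202 and 801 in sensitive roots. LOC_Os07g12710 fell from 147 and 103 to 31.3 and 41.6 in tolerant and from 101 and 96.6 to 16.7 and 13.3 in sensitive roots, with log2 changes of −1.78 ± 0.43 and −2.71 ± 0.49 (SE) by the authors' deposited table. Both fell in both lines, with no overlap between the temperatures. LOC_Os07g12800 went opposite ways. It stood at 257 and 197 normalised counts in sensitive and at 301 and 240.5 in tolerant roots at 28 °C, and at 612 and 935 against 76.7 and 163 at 10 °C. Its log2 change was 1.77 ± 0.43 (SE) in sensitive roots, adjusted p 0.000191, and −1.18 ± 0.44 (SE) in tolerant roots, adjusted p 0.0203, in the authors' deposited table. The line difference of LOC_Os07g12800 at 10 °C was −2.70 ± 0.44 (SE) with an adjusted p of 1.92e-07 in the authors' deposited table, while its libraries at 28 °C overlapped.

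In the second stretch LOC_Os07g18120 had the smallest p for a fall in sensitive roots among all members, from 1595 and 1231 to 58.4 and 39.8 normalised counts, a log2 change of −4.83 ± 0.42 (SE) by the authors' deposited table. In tolerant roots it fell from 738 and 1415 to 172 and 182, −2.61 ± 0.39 (SE) in the authors' deposited table. At 10 °C it was called higher in tolerant roots, with a log2 difference of 1.84 ± 0.42 (SE) in the authors' deposited table, and its libraries overlapped at 28 °C. LOC_Os07g16040 fell to a like level in both lines, from 1195 and 1084 to 298 and 224 in sensitive and from 960.2 and 759 to 286 and 133 in tolerant roots.

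Rises of the second stretch were led by LOC_Os07g19040, from 6.39 and 3.32 to 60.6 and 69.7 normalised counts in tolerant and from 5.64 and 8.20 to 64.7 and 64.8 in sensitive roots. Its log2 changes were 3.74 ± 0.64 and 3.23 ± 0.61 (SE) in the authors' deposited table, and the levels of the lines overlapped at 10 °C. LOC_Os07g18720 rose from 319 and 229.7 to 819.7 and 1381 in sensitive and from 354 and 278 to 655 and 812 in tolerant roots. LOC_Os07g16970 rose from 110.5 and 117 to 311 and 543 in sensitive and from 87.0 and 148 to 348 and 376 in tolerant roots. In all 3 the libraries at 10 °C lay above those at 28 °C in both lines.

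**Figure D4:**
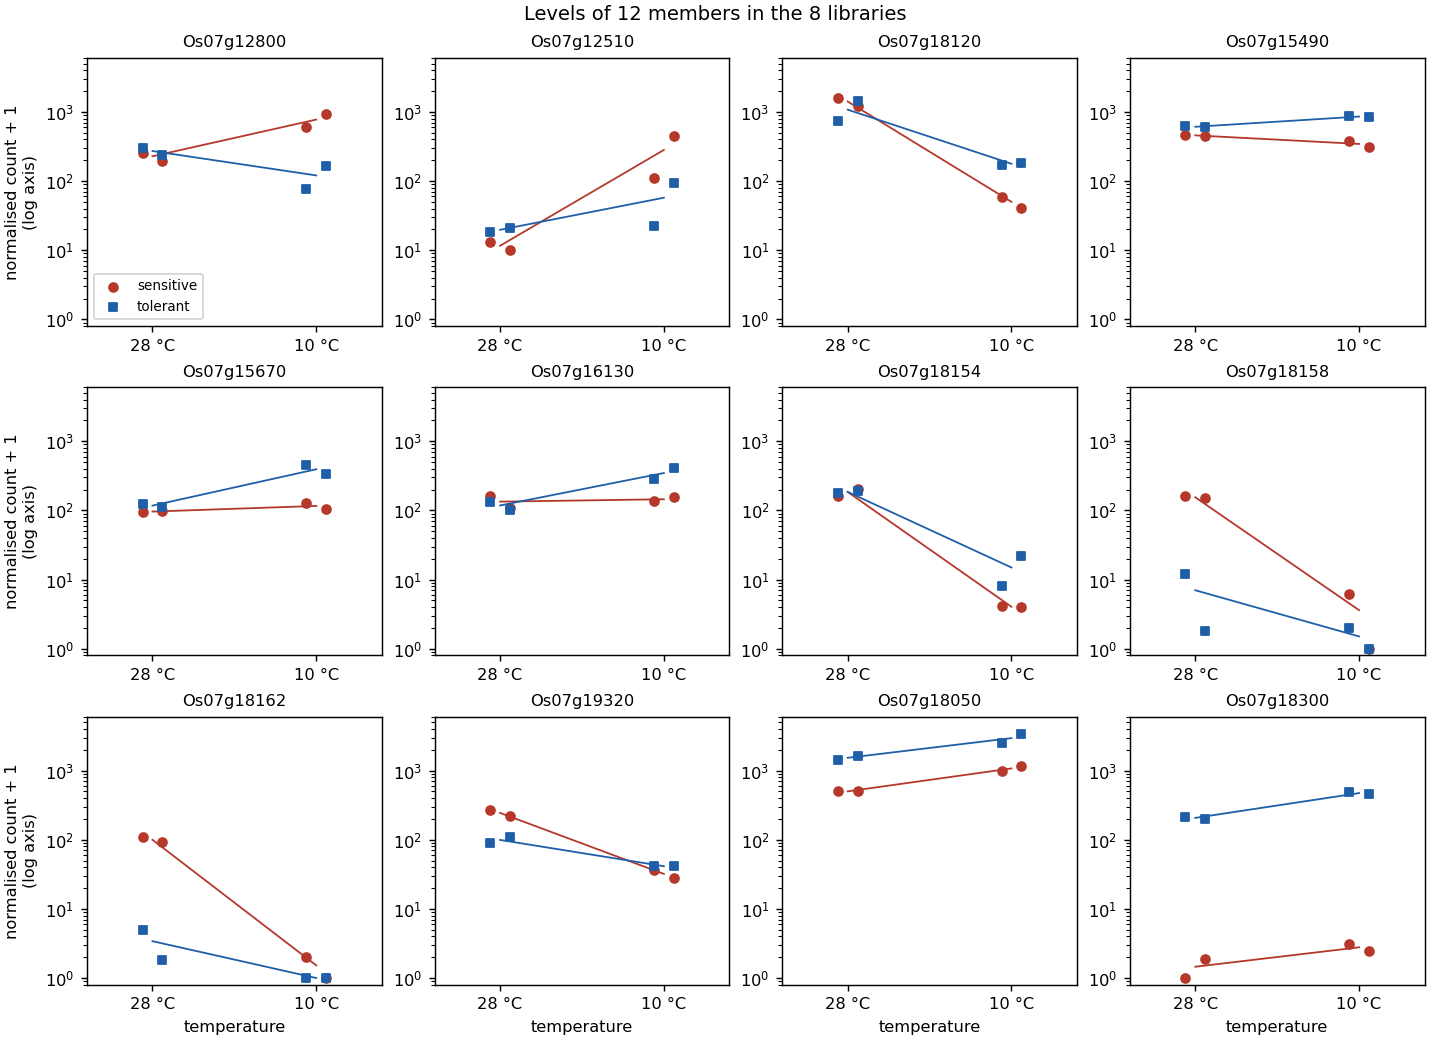
Normalised counts plus 1 (log axis) of 12 members in each library at 28 °C and 10 °C; circles are sensitive and squares tolerant libraries, and lines join the means of the 2 libraries. LOC_Os07g12800 rises in sensitive and falls in tolerant roots, LOC_Os07g18154, LOC_Os07g18158 and LOC_Os07g18162 fall to a few reads, and LOC_Os07g18050 and LOC_Os07g18300 lie higher in tolerant roots at both temperatures.

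Most members were not called between the lines, and these included the most abundant ones. At neither temperature were 121 of 155 members called in the authors' deposited table, 45 in the first and 76 in the second stretch. At either temperature 34 of the 155 were called, against 636 of 25238 genes with a mean of at least 1 on other chromosomes. In none of the 4 comparisons were 78 called, and that share was not computed over all genes. The 121 include the 29 with no adjusted p at 10 °C, for which no call could be made there. LOC_Os07g17184 is 1 of these 29, with 0 reads in tolerant and 2 and 23 in sensitive libraries at 10 °C. Over all genes 0.765 percent were called at 28 °C and 2.9 percent at 10 °C. Of 76 members with a mean of at least 100 normalised counts, 60 were called at neither temperature, a share not computed over all genes of that mean. Over these 60 the median absolute log2 difference at 10 °C was 0.23 in the authors' deposited table. A small median is partly built in, since members not called were picked. Among these 60 the largest absolute log2 difference was 1.98 at 28 °C and 1.81 at 10 °C. LOC_Os07g12200 had group levels of 6022 and 6386 normalised counts in sensitive and tolerant roots at 28 °C and of 7251 and 6309.6 at 10 °C. LOC_Os07g12170 had 5018 and 5424 at 28 °C and 5099 and 5750.2 at 10 °C, and LOC_Os07g13530 had 4129 and 3689 and then 4027 and 4476. In the second stretch LOC_Os07g18750 had group levels of 3263 and 2842 at 28 °C and of 3687 and 3131 at 10 °C. LOC_Os07g15880 and LOC_Os07g19530 rose in the cold in both lines, from 2529.6 and 2601 to 5149 and 5915 and from 1567 and 1572 to 3387 and 2920.5.

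At the edges, 3 of the 4 outermost members were not called between the lines. LOC_Os07g12150 held 358 and 352 normalised counts in sensitive and 262 and 358 in tolerant roots at 10 °C, and LOC_Os07g13540 held 17.7 and 10.3 against 6.06 and 8.56, with adjusted p of 0.872 and 0.657 in the authors' deposited table. LOC_Os07g20510 held 752 and 523 against 639 and 419, adjusted p 0.815 in the authors' deposited table. Just outside, LOC_Os07g12140 had 544 and 327 against 651 and 480.3 at 10 °C, LOC_Os07g13590 had 536 and 329.9 against 448 and 422, and LOC_Os07g20544 had 589 and 754 against 563 and 513. LOC_Os07g15460, the neighbour before the second stretch, varied widely between libraries of a group, with 853 and 115 against 3617 and 1007 at 10 °C. Of the 10 IDs beyond each end, 6 before and 8 after the first stretch were tested at 10 °C, and 10 before and 8 after the second. These IDs had 0 calls at 28 °C and 1 at 10 °C in the authors' deposited table. Nothing is read from the 0, since the contrast at 28 °C chose the stretches.

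The 1 called at 10 °C was LOC_Os07g15440, which lies just before the second stretch and had the pattern of its lower members. It stood at 745 and 664 normalised counts in sensitive roots at 10 °C and had 0 reads in tolerant roots, and at 28 °C it stood at 813 and 798 in sensitive roots and at 121 in the deeper and 4.15 in the shallower tolerant library. Of the 56 IDs between the stretches with a mean of at least 1, 2 were called higher at 28 °C, and 4 of 48 tested were called lower at 10 °C in the authors' deposited table. Calls at 10 °C were therefore made on 8.33% of the tested IDs between the stretches, against 28% and 22.4% within them. All these shares lie above the 2.9 percent over all genes. They also lie above the 3.98% on the rest of chromosome 7, which includes the IDs between the stretches.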

How the data were processed

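Root RNA of 8 libraries, 2 in each of 4 groups, was sequenced as 50 bp reads, per the labels' protocols. Bowtie 0.12.7 is named in the submitters' processing notes. The names of the deposited comparisons carry the word STAR, also the name of an aligner, so the aligner behind these values is unclear. The sources used here do not give the counter, the build or the handling of mismatched or multiply mapped reads. The authors deposited 4 comparison tables of 1 fit, with a mean signal (normalised count over all libraries), a log2 fold change, its standard error and Wald statistic as scores, and a p-value with its adjusted form. No count table was used here, so no model was refitted: a call is the authors' deposited adjusted p below 0.05.

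Group levels follow from the deposited mean and fold changes. Reads per library, added after the data were seen, are the whole numbers that return the deposited mean to a relative 1e-14; the method was checked on simulated data. Fold bounds take 3 reads over a group, and 95% intervals are exact. Python 3.11.15, numpy 2.4.6, pandas 2.3.3 and scipy 1.17.1 were used.

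The members, lists and rules were chosen with earlier results of these data known. Named members were, per stretch, up to 15 called at 10 °C by smallest p, up to 5 called at 28 °C only, the 3 most abundant called in neither, the 3 smallest p per cold response and direction, and the outermost members with the nearest ID outside. Other thresholds, adjustments and filters on the mean were tried as alternatives.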

Additional observations from a re-analysis of the deposited data

Results flagged for a closer look

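LOC_Os07g12800 moved in opposite directions in the cold in the 2 lines, with both libraries at 10 °C above both at 28 °C in sensitive roots and below both in tolerant roots. The authors' deposited table gives the cold response as −1.18 (tolerant) and 1.77 (sensitive) on the log2 scale, 2.95 apart, and the difference was not tested.

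LOC_Os07g19320 was lower in both tolerant than in both sensitive libraries at 28 °C and higher in both at 10 °C. Its log2 difference was −1.31 at 28 °C and 0.37 at 10 °C in the authors' deposited table, 1.67 apart, and the difference was not tested.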

How the results depend on the processing

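The counts of members called at 28 °C (17), at 10 °C (31), in the cold in tolerant (48) and sensitive roots (43) and in the same direction at both temperatures (14) stayed within 1.5 times under an adjusted p below 0.01, a fold of at least 2, adjustment over all genes with a p-value or over genes with a mean of at least 10, and members with a mean of at least 10 or of any mean. With members of any mean only the count at 28 °C could differ, since elsewhere no gene with a mean below 1 has an adjusted p. With each table's statistics divided by their robust spread, which was 0.675, 1.21, 2.71 and 2.97 in the same order, the counts became 33, 17, 0 and 1, against 3.01, 1.16, 1 and 1.01 percent of all genes, and 13 were called at both temperatures. The spreads of 2.71 and 2.97 hold the cold response itself, called in 40 and 44.5 percent of all genes. Few cold calls were therefore to be expected. For the 0, the counts at an unadjusted p below 0.05 in the deposited Wald test were 69 in tolerant and 54 in sensitive roots, of 155 members. On other chromosomes they were 11487 and 12365 of 25238 genes. With a pseudocount of 1 on the group levels, 91 of 106 line differences of named members moved by less than their standard error. A pseudocount cannot change the sign of a difference and hardly moves members at high levels, so little is read from this. The share of the sensitive level that the 23 members with at most 1 tolerant read at 10 °C held in tolerant roots at 28 °C ran from 0.975% to 13.3% on leaving out 1 tolerant library, around 7.16%. Refits without a library were not run, since the tables hold no counts. No paired analysis was possible because the solved libraries carry no replicate number of the labels. Depth limits the members with few reads: 29 had no adjusted p at 10 °C.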
